A study of Mus musculus with 27 samples.

Results

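The neighbourhood of Nanog, Dppa3 and Gdf3 is a stretch of mouse chromosome 6 between positions 122550000 and 122800000 of GRCm38 that carries 3 genes of the naive pluripotent state. Its members were chosen by position alone. They are the 62 windows that lie wholly inside those limits, of 453245 windows in the deposited table and of 444250 windows tested genome-wide. Each window was named by the authors as holding 100 CpGs, so a short window is rich in CpGs and a long one is poor in them. The value of a window is the percentage of its CpGs read as methylated after bisulfite conversion, and a difference between values is given in percentage points. Bisulfite conversion does not separate methylated from hydroxymethylated cytosine, so both count as methylated here.

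Whole-genome bisulfite sequencing was done on 3 mouse embryonic stem cell lines. TET_KO carries a triple knockout of the dioxygenase genes Tet1, Tet2 and Tet3, and TET_WT is the wild-type line it was made from. DNMT_WT is a wild-type line too, the parent of a knockout whose libraries were not analysed here. Each line was sampled as naive stem cells in 2i and Lif on D0 and as epiblast-like cells on D1 and D2, with 3 libraries each, which gives 9 groups and 27 libraries. Whether TET_KO is 1 clone or several, and whether libraries of a group came from separate cultures, is not given in the sources used here, so p-values speak only of spread among these libraries, and that spread may be technical. Cell identity could not be checked against markers, because only DNA methylation was measured, and for the same reason the loss of the Tet genes could not be checked. A percentage of intermediate size can come from some cells with full methylation or from all cells with partial methylation, and these cannot be told apart.

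Nanog encodes a homeodomain transcription factor of the core pluripotency network, and its distal enhancers are known to lie on both sides of the gene. Dppa3, also called Stella or PGC7, encodes a small protein of oocytes, early embryos and naive stem cells that keeps the maintenance methylation cofactor Uhrf1 away from chromatin. Gdf3 encodes a ligand of the TGF-beta family. Naive stem cells in 2i hold little DNA methylation. During conversion to epiblast-like cells the de novo methyltransferases Dnmt3a and Dnmt3b add methylation across most of the genome, while Tet enzymes oxidise it, above all at enhancers and promoters. The neighbourhood also holds Apobec1, which encodes a cytidine deaminase, and most of Slc2a3, which encodes a glucose transporter. Further annotated entries are the pseudogenes Gm8459, Gm8460, Gm10420, Gm10224 and Gm4482 and the small nucleolar RNA LOC115490479.

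Promoter sequences were found in the RefSeq table of GRCm38.p6 for 2 of the 5 protein-coding genes described, Nanog and Apobec1, and are shown because the windows that hold them differed in level. Nanog is on the plus strand and starts at position 122707489. Its promoter entry at that start, chr6:122707239-122707538, holds 4 CpGs, against a median of 7 over all promoter entries. The entry of Apobec1, chr6:122602395-122602694 on the minus strand, holds 9. Both are written 5′ to 3′ from 250 bases before the start to 50 bases after it, with CpGs in capitals.
Nanog: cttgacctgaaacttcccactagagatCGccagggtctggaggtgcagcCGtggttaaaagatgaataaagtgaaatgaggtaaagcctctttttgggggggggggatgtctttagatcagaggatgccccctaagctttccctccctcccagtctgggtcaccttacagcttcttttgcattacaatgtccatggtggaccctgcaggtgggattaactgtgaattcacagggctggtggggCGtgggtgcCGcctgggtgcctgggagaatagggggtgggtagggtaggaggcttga
Apobec1: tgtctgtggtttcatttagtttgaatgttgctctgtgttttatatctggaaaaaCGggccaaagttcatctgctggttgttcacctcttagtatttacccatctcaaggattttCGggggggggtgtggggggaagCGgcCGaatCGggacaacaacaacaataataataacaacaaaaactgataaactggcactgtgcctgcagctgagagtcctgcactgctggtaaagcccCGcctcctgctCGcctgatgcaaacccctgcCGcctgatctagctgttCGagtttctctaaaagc
The Nanog entry holds the composite octamer and Sox element TTTGCATTACAATG, which ends 61 bases before the start and is the textbook binding site of Oct4 with Sox2. The letters searched were TTTGCATNACAATG on both strands, chosen because the element is known to lie in this promoter. They occurred in 2 of 32851 promoter entries, both of Nanog. The second entry, chr6:122707315-122707614, belongs to a later start, and the same element ends 137 bases before that start. Parts of the element were common: TTTGCAT occurred in 4.63% of entries and ACAATG in 12.6%, and each overlaps the composite. No CpG falls within the element. A match describes the sequence only, and binding was not measured.

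Across all tested windows, group means ran from 3.20% in DNMT_WT on D0 to 70.8% in TET_KO on D2. The libraries numbered replicate 2 in TET_WT, a different one on each day, stood apart from their groups on D1, with a genome-wide mean of 31.3% against 34.2% and 34.3%, and on D2, with 55.4% against 51.6% and 50.5%. In the neighbourhood the D1 library had a mean of 21.5% against 25.0% and 24.5%, and the D2 library 50.3% against 46.9% and 45.2%. A window or gene was called when its Benjamini-Hochberg adjusted p in limma, over all windows or genes tested, was under 0.05 and its difference was at least 10 points. A call is not a statement about excess over the genome, so each count is given with the share of all windows called. Since whole libraries differed, counts are also given on values centred by library, from which the median over all windows had been subtracted. Centring turns a window that stays near 0% into one that falls whenever the median rises.

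The neighbourhood was a landscape of deep troughs in a methylated background. Its mean was 15.1% ± 0.252 (SD, n = 3) in naive TET_WT, against 25.5% ± 0.387 over all tested windows and 25.8% ± 0.449 over the 109 windows of the flanks, which are stretches of the same length on either side. In naive TET_WT, 17 of 62 windows (27.4%) were under 5%, against 6.60% of all tested windows and 13 of the 109 flank windows. The threshold of 5% was chosen after the values were seen, with a window at 4.57% just inside and one at 5.81% just outside. These low windows fell into 7 separate runs: Gdf3, Dppa3, an intergenic stretch from 45.8 to 40.2 kb upstream of the Nanog start, a window from 15.1 to 11.3 kb upstream, Nanog itself with its upstream flank, and a pair of runs inside the body of Slc2a3. By D2 only 3 windows of TET_WT, 2 of TET_KO and 2 of DNMT_WT were under 5%. These are 4.84%, 3.23% and 3.23% of the neighbourhood, near the 4.07%, 3.43% and 3.66% of all tested windows, while the flanks held 9.17%, 8.26% and 8.26%.

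**Figure D1:**
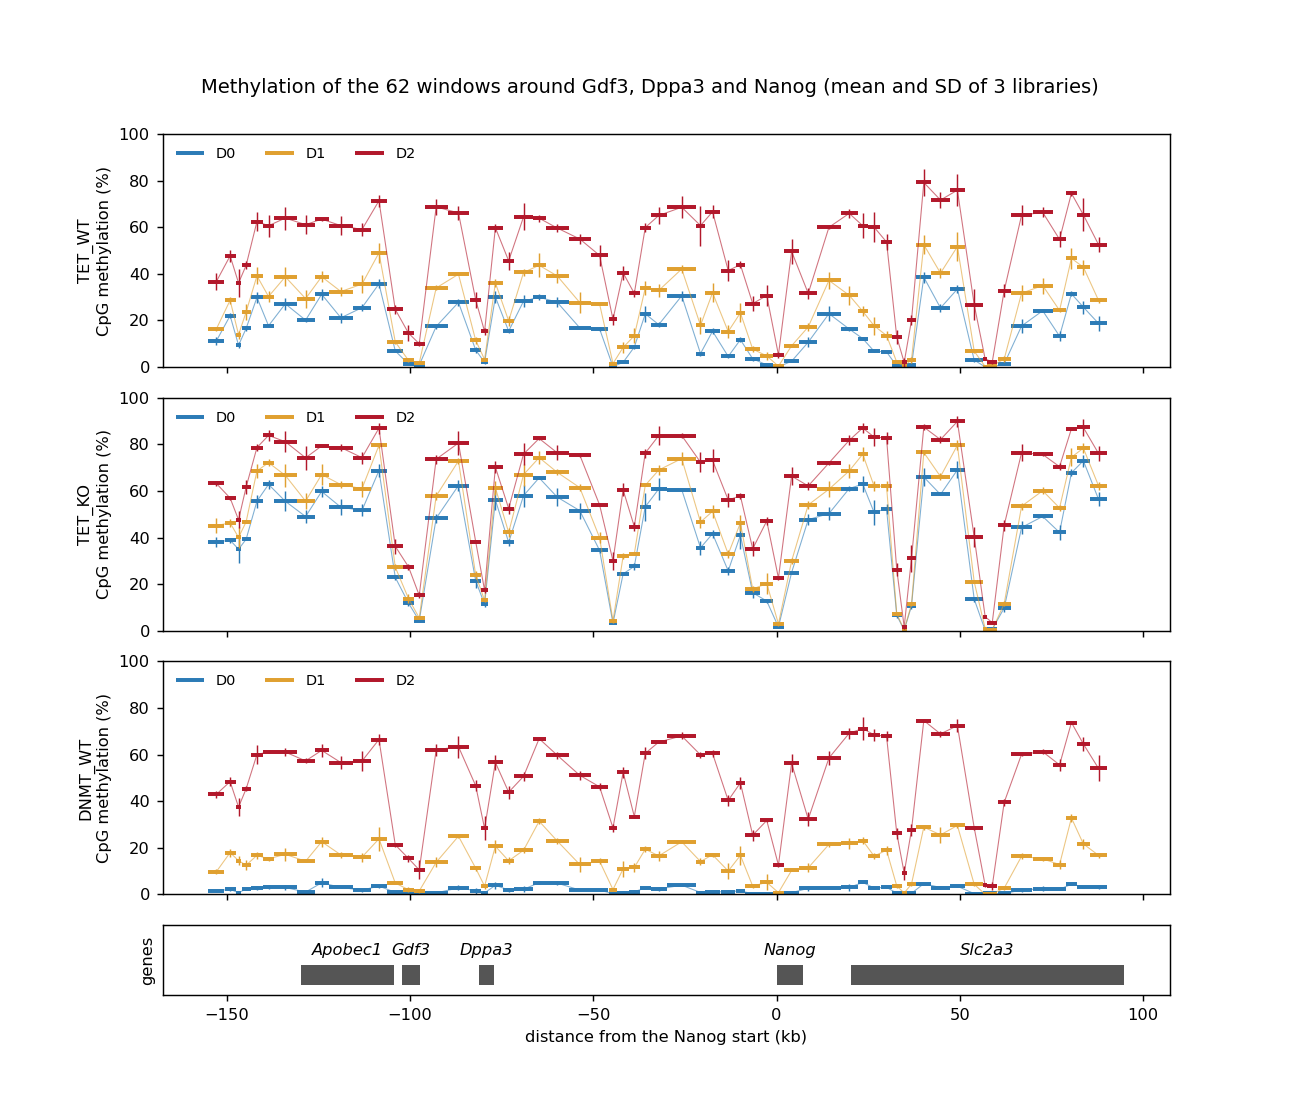
CpG methylation (%) of the 62 windows against distance from the Nanog start (kb), one panel per line, with D0 in blue, D1 in orange and D2 in red; horizontal bars span each window, vertical bars are the SD of 3 libraries, and the lowest panel gives 5 protein-coding genes. The troughs at Gdf3, Dppa3, 45 kb upstream of Nanog, Nanog and Slc2a3 recur in all lines, and levels rise with the day, from a median of 15.9% to 54.9% over all 62 windows in TET_WT.

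Troughs were shorter windows, hence denser in CpGs. The 17 low windows had a median length of 2859 bp and the other 45 of 4239 bp, against 5058 bp over all tested windows. Over the 62 windows, Spearman's rho of level against length was 0.55 in TET_WT on D0, 0.54 on D2, 0.45 in TET_KO on D0 and 0.36 in DNMT_WT on D0. Over all 444250 windows the same rho was 0.03, -0.13, -0.10 and -0.14. These are descriptions across windows of the same libraries, which are not independent replicates.

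**Figure D2:**
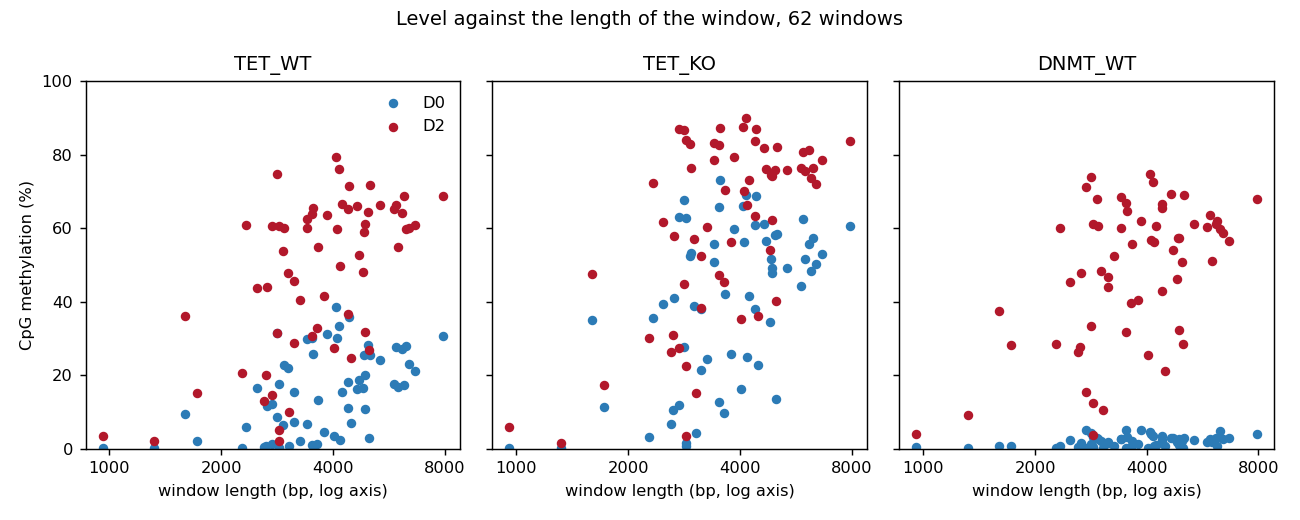
CpG methylation (%) of each window against its length (bp, log axis) in the 3 lines, on D0 in blue and on D2 in red; each point is the mean of 3 libraries. The shortest windows, of 958 and 1320 bp, stay under 10% in every group, and among longer windows both low and high levels occur.

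The window that holds the start of Nanog, chr6:122706585-122709443, was nearly free of methylation in both wild-type lines until D2. In TET_WT its 3 libraries read 0.0736%, 0.146% and 0.129% on D0, then 0.258%, 0.656% and 0.243% on D1, and 3.95%, 6.39% and 5.35% on D2. In TET_KO they read 1.86%, 1.68% and 1.29% on D0, then 1.94%, 3.76% and 3.05% on D1, and 23.0%, 23.0% and 21.8% on D2. The knockout libraries lay above the parental ones on every day without overlap. On D0 the difference was 1.50 ± 0.594 points (SE; limma adjusted p = 0.019), under the minimum for a call, and on D2 it was 17.4 ± 0.594 points (limma adjusted p = 2.5e-18), against medians of 27.5 and 17.9 points over all tested windows on these days. After centring the signs turned, to -28.9 and -3.35 points. DNMT_WT on D2 read 13.0%, 11.5% and 13.1%, between the other lines, and 7.33 ± 0.594 points above TET_WT. In its rank among all tested windows the start stayed low throughout, at the 1.25th percentile in naive TET_WT and the 5.54th in TET_KO on D2.

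The next window, chr6:122709508-122713698, covers most of the Nanog body and behaved differently from the start. It read 2.09%, 2.79% and 2.63% in naive TET_WT, 9.25%, 8.43% and 9.76% on D1, and 47.6%, 55.7% and 45.7% on D2. All 3 libraries of each day lay above those of the day before. From D1 to D2 it rose by 40.5 ± 2.09 points in TET_WT and by 36.5 ± 2.09 points in TET_KO (limma adjusted p = 1.0e-14 and 3.6e-13). In naive TET_KO it already stood at 25.2%, 24.6% and 25.1%, which was 22.5 ± 2.09 points above TET_WT and -7.90 points after centring. Its percentile among all windows moved from 5.25 in naive TET_WT to 37.0 on D2, and from 7.79 to 23.2 in TET_KO.

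The window at the end of Nanog, chr6:122713699-122718582, holds the last part of the gene and several kilobases beyond it. In TET_WT it read 8.33%, 12.4% and 11.4% on D0 and 30.2%, 34.4% and 30.3% on D2. In TET_KO it read 46.5%, 46.0% and 50.6% on D0 and 60.0%, 63.3% and 63.2% on D2. The knockout libraries on D0 thus exceeded the parental ones of D2. On D0 the knockout was 37.0 ± 1.84 points higher, and on D2 30.5 ± 1.84 points, the largest D2 difference of the 62 windows (limma adjusted p = 1.5e-14). After centring these were 6.65 and 9.79 points, under the minimum. In DNMT_WT on D2 the window stood at 32.3% ± 2.90 (SD, n = 3), at 0.664 ± 1.84 points from TET_WT (limma adjusted p = 0.80).

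**Figure D3:**
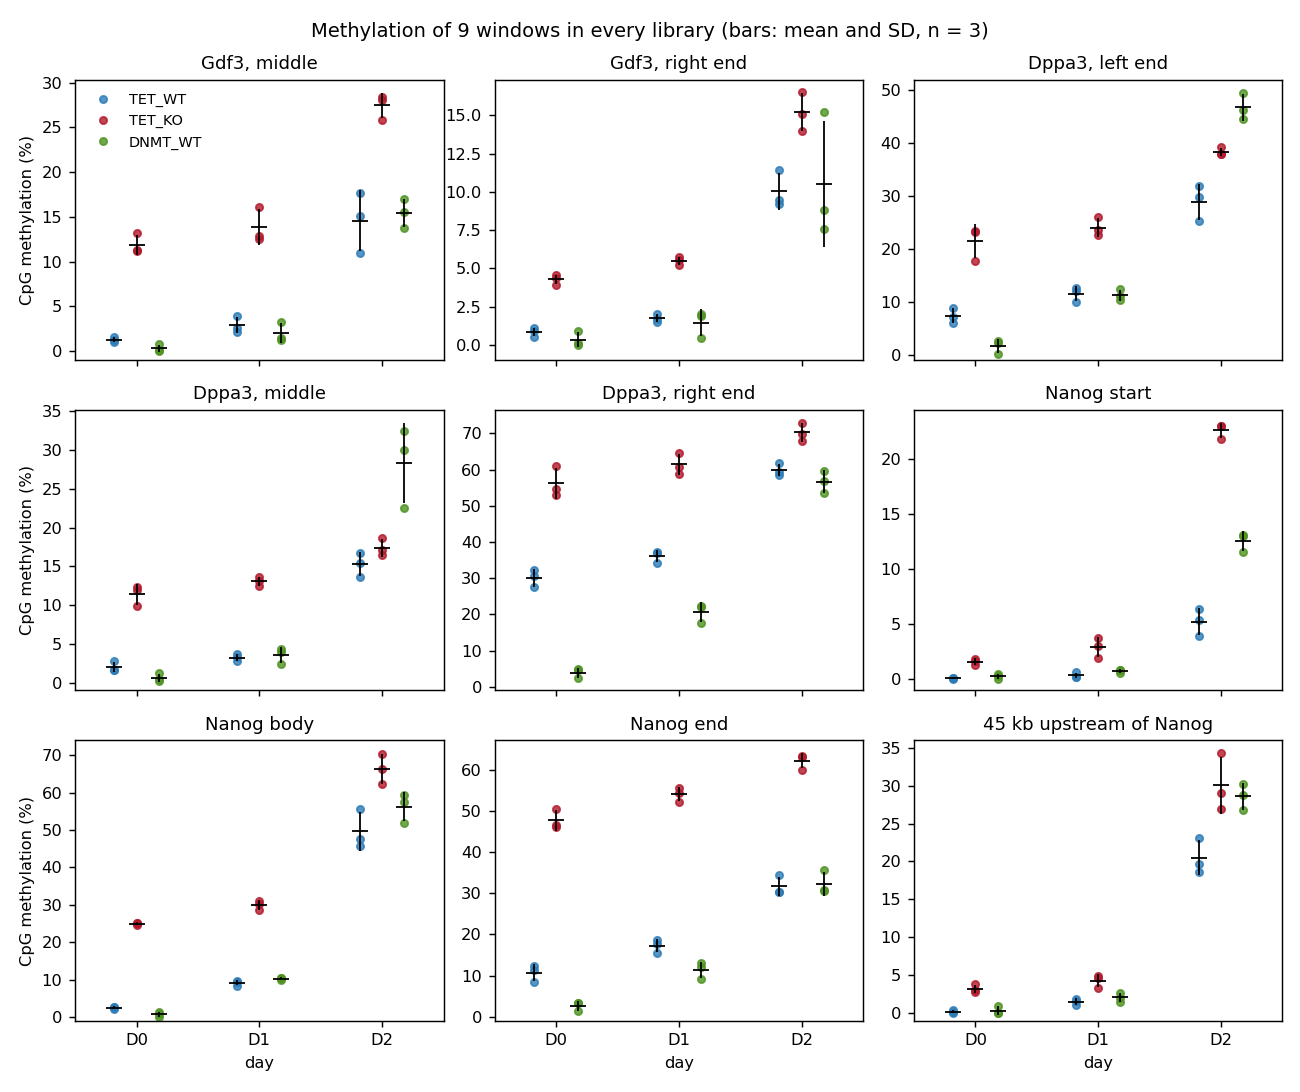
CpG methylation (%) of 9 windows in every library by day, with TET_WT in blue, TET_KO in red and DNMT_WT in green; points are libraries and black bars the mean and SD of 3, and each panel has its own scale. Left and right end are the ends with the lower and higher coordinate. At the Nanog start the D2 libraries order as TET_WT (3.95% to 6.39%), DNMT_WT (11.5% to 13.1%) and TET_KO (21.8% to 23.0%) without overlap, while at the middle window of Dppa3 those of TET_WT and TET_KO overlap.

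Dppa3, between 122626424 and 122630271, was a narrow trough with unequal sides. Its strand is not in the tables used, so both ends are given. The middle window, chr6:122626964-122628684, spans 1721 bp and read 1.58%, 2.80% and 1.70% in naive TET_WT and 16.8%, 15.5% and 13.7% on D2. In TET_KO it read 12.4%, 11.9% and 9.89% on D0 and 16.4%, 17.1% and 18.7% on D2. The knockout was separate on D0 but overlapped the parental line on D2, where the difference was 2.10 ± 1.41 points (limma adjusted p = 0.15). On D0 the difference was 9.36 ± 1.41 points (limma adjusted p = 4.1e-07), just under the minimum, and it passed at 10.1 points without TET_KO replicate 3. Both signs turned after centring, to -21.0 points on D0 and -18.6 on D2. In DNMT_WT on D2 the window read 22.5%, 30.0% and 32.4%, above all libraries of both other lines, and the difference from TET_WT was 13.0 ± 1.41 points (limma adjusted p = 8.1e-08).

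The window at the lower-coordinate end of Dppa3, chr6:122623825-122626963, showed the same order on D2. It read 25.2%, 31.8% and 29.7% in TET_WT, 37.9%, 39.2% and 37.8% in TET_KO and 49.4%, 46.2% and 44.5% in DNMT_WT. DNMT_WT was 17.8 ± 1.66 points above TET_WT (limma adjusted p = 7.1e-09), the largest such difference among the 62 windows. TET_KO was 9.42 ± 1.66 points above TET_WT, under the minimum, 10.9 points without TET_WT replicate 2, and -11.3 points after centring. The percentile of this window on D2 was 10.7 in TET_WT, 7.62 in TET_KO and 38.2 in DNMT_WT. The window at the other end, chr6:122628714-122632829, was not a trough: it stood at 30.1% ± 2.40 in naive TET_WT and at 56.2% ± 4.18 in naive TET_KO (SD, n = 3).

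Gdf3, between 122605403 and 122610087, kept low levels in all groups. The window inside the gene, chr6:122605691-122608435, read 1.07%, 1.23% and 1.59% in naive TET_WT and 15.1%, 17.7% and 11.0% on D2. In TET_KO it read 11.2%, 11.4% and 13.1% on D0 and 25.8%, 28.4% and 28.1% on D2. The lines did not overlap on either day, with 10.6 ± 1.20 points between them on D0 and 12.9 ± 1.20 on D2 (limma adjusted p = 2.0e-09 and 9.2e-11). All tested windows differed by a median of 27.5 and 17.9 points on these days, and after centring the signs at Gdf3 turned, to -19.8 and -7.86 points. The D0 call rests on TET_KO replicate 3, without which the difference was 9.96 points. At the higher-coordinate end, chr6:122608469-122611514, levels stayed lower still: on D2 the libraries read 9.47%, 11.4% and 9.22% in TET_WT, 14.0%, 16.5% and 15.1% in TET_KO, and 8.80%, 7.56% and 15.2% in DNMT_WT. The knockout was 5.16 ± 1.10 points above its parent there on D2 (limma adjusted p = 7.9e-05), under the minimum, and -15.6 points after centring.

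The third Gdf3 window, chr6:122601220-122605690, holds only a short stretch of the gene, at its lower-coordinate end, and also the Apobec1 promoter printed above. It stood at 6.93% ± 0.250 in naive TET_WT and at 24.8% ± 1.81 on D2, and at 22.9% ± 0.976 and 36.2% ± 3.16 in TET_KO (SD, n = 3). It is shared by both genes, so its level cannot be assigned to either. The remaining windows of Apobec1 were not troughs, and its gene body, the mean of the windows that overlap it, stood at 23.5% ± 0.686 in naive TET_WT, against 3.02% ± 0.241 for Gdf3, 13.2% ± 0.918 for Dppa3 and 13.4% ± 0.621 for Slc2a3 (SD, n = 3).

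Outside the genes, the deepest trough in naive TET_WT lay upstream of Nanog at chr6:122661723-122663998, from 45.8 to 43.5 kb before the start, and was singled out after its values were seen. It read 0%, 0.384% and 0.116% in naive TET_WT and 23.1%, 19.7% and 18.6% on D2. In TET_KO it read 3.01%, 2.84% and 3.82% on D0, still 3.26%, 4.70% and 4.84% on D1, and 34.2%, 29.0% and 26.9% on D2. From D0 to D1 it differed by 1.37 ± 1.23 points in TET_WT and 1.04 ± 1.23 in TET_KO (limma adjusted p = 0.30 and 0.42). From D1 to D2 it rose: 19.0 ± 1.23 points in TET_WT and 25.8 ± 1.23 points in TET_KO (limma adjusted p = 2.0e-13 and 1.3e-14). A level of 0% in a library means that no methylated CpG was listed, and the depth behind it is unknown.

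Within the body of Slc2a3, 2 further troughs stood beside the highest windows of the neighbourhood. The lowest window over all 27 libraries, chr6:122764928-122767786, averaged 1.29% and on D2 reached 2.21% ± 0.889 in TET_WT, 3.45% ± 0.249 in TET_KO and 3.62% ± 1.61 in DNMT_WT (SD, n = 3). The highest, chr6:122745637-122749718, averaged 56.5% and reached 79.2% ± 5.83, 87.4% ± 1.18 and 74.6% ± 0.756 in the same groups. Chr6:122741665-122742984 read 0.154%, 0.564% and 0.144% in naive TET_WT and 0%, 0.503% and 0.200% in naive TET_KO, which overlap. Together with the windows at chr6:122763944-122764901 and chr6:122764928-122767786, it had group means of at most 6.03% in TET_KO on every day. In DNMT_WT on D2, chr6:122741665-122742984 reached 9.18% ± 3.03, against 2.01% ± 1.98 in TET_WT (SD, n = 3).

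The time course was described by calls between consecutive days. From D0 to D1, 31 windows rose in TET_WT (27.6% of all windows were called higher), 14 in TET_KO (20.1%) and 42 in DNMT_WT (49%). From D1 to D2, 57 rose in TET_WT (88%), 46 in TET_KO (65.8%) and 58 in DNMT_WT (94.9%), and no window fell in any of these 6 comparisons, while at most 0.00675% of all windows were called lower in each. After centring, no window passed from D0 to D1 in either TET line, where at most 0.296% of all windows passed in either direction. In DNMT_WT the split was 6 higher and 2 lower (9.03% and 2.99% of all windows). From D1 to D2 the centred split in TET_WT was 9 higher and 8 lower (2.17% and 17.8%). It was 8 and 1 in TET_KO (0.743% and 4.89%) and 1 and 19 in DNMT_WT (2.62% and 25.4%). The Nanog body was among the 9 that rose beyond the library median in TET_WT, by 18.1 points. The Nanog start, both Gdf3 windows that lie mainly in the gene and the middle of Dppa3 were among the 8 below it.

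The largest D1 to D2 rise in TET_WT, 42.8 ± 2.82 points, was at chr6:122685579-122687909, an intergenic window from 21.9 to 19.6 kb upstream of Nanog (limma adjusted p = 2.6e-13). It went from 17.7%, 14.3% and 21.7% to 57.8%, 70.4% and 54.0%. The library at 70.4% was replicate 2 of D2, which stood apart genome-wide. In Slc2a3, chr6:122732400-122735803 rose by 42.4 ± 2.68 points in TET_WT and by 52.1 ± 2.68 points in DNMT_WT over the same day. In TET_KO the 3 largest rises were at the Nanog body, at chr6:122767805-122771433 in Slc2a3 with 33.7 ± 1.28 points, and at chr6:122664004-122667264, next to the deep upstream trough, with 28.4 ± 1.78 points.

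The Tet knockout held more methylation than its parental line over most of the neighbourhood, and the troughs differed by less. TET_KO was higher than TET_WT in 52 of 62 windows on D0 (92.9% of all windows were called higher), 52 on D1 (92.6%) and 47 on D2 (84.3%), and lower in none, while at most 0.0542% of all windows were called lower. The median difference over the 62 windows was 26.8, 25.2 and 13.7 points on the 3 days, against 27.5, 27.4 and 17.9 over all tested windows. On D0 the 10 windows not called were all among the 17 low ones, which were chosen on the naive TET_WT level that enters this comparison. After centring, the split was 7 higher and 19 lower on D0 (3.69% and 19.2% of all windows). It was 4 and 21 on D1 (2.76% and 19.8%), and 0 and 17 on D2 (8.47% and 17.99%). The higher windows after centring on D0 included 4 neighbouring windows of Slc2a3 between 122725007 and 122738982.

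**Figure D4:**
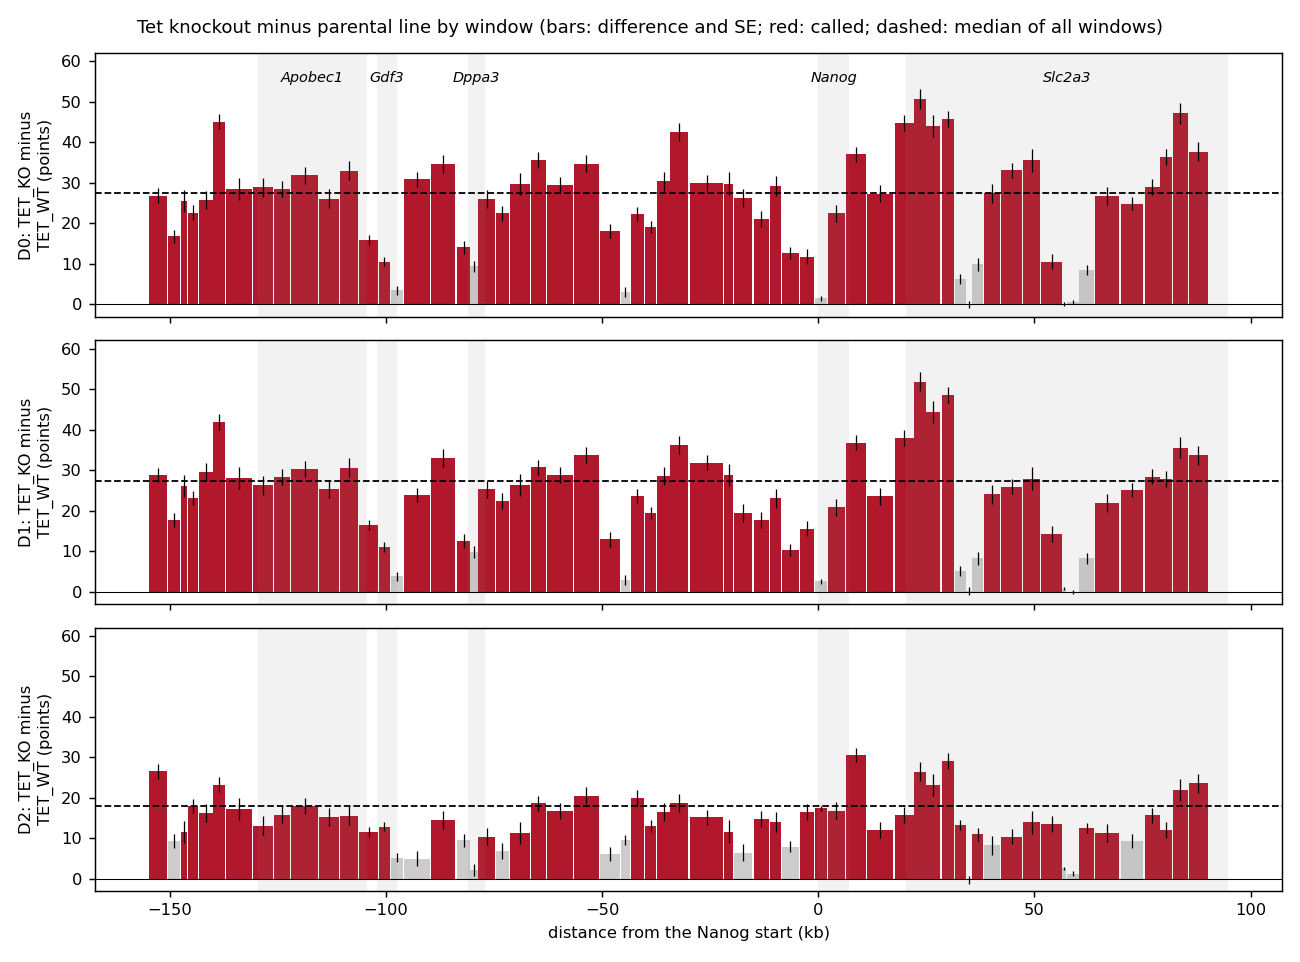
Difference of TET_KO from TET_WT (percentage points) by window against distance from the Nanog start (kb), one panel per day; bars give the difference with its SE, red bars were called, grey bars were not, shading marks the bodies of 5 genes and the dashed line is the median of all tested windows. On D0 the bars shrink at Gdf3, Dppa3, 45 kb upstream of Nanog, at the Nanog start and in Slc2a3, and on D2 the Nanog start reaches 17.4 points, close to the dashed line.

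The largest differences on D0 lay downstream of Nanog in Slc2a3. Chr6:122729649-122732390 stood at 12.2% ± 0.776 in TET_WT and 63.0% ± 3.55 in TET_KO (SD, n = 3), a difference of 50.7 ± 2.38 points (limma adjusted p = 1.2e-16), and on D1 the difference was 51.8 ± 2.38. Chr6:122736042-122738982 differed by 45.8 ± 1.91 points on D0 and by 29.1 ± 1.91 on D2. Both stayed above the library shift on D0, by 20.3 and 15.4 points after centring. Over gene bodies the D0 difference was 27.4 ± 1.38 points for Apobec1, 24.3 ± 1.13 for Slc2a3, 20.3 ± 1.03 for Nanog and 16.5 ± 0.986 for Dppa3, all called, as were 96.2% of the 21430 protein-coding genes. With only windows whose midpoint lies in the gene, the Dppa3 difference was 9.36 points and no longer called. Gdf3 stood at 10.0 ± 0.916 points, just under the minimum. The median gene differed by 25.2 points. For all 5 genes the sign turned after centring.

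The gain from D0 to D2 was smaller in TET_KO than in TET_WT over most of the neighbourhood. It was smaller in 37 windows (44.2% of all windows) and larger in 1 (2.5%), a share at the background for the larger gains. The exception was the Nanog start, which gained 21.0 points in TET_KO and 5.11 in TET_WT, a difference of 15.9 ± 0.840 points (limma adjusted p = 1.4e-11). Without TET_WT replicate 2 of D2 it was 16.5 points, and after centring it was 25.5. The largest opposite differences were -28.9 ± 2.80 points at chr6:122725007-122729648 at the edge of Slc2a3, -26.0 ± 2.58 at chr6:122611515-122617718 beside Gdf3, and -25.4 ± 3.68 at chr6:122789448-122792979 in Slc2a3. After centring the split was 11 larger and 12 smaller gains (17.9% and 8.45% of all windows). All 11 larger gains were in low windows, which include both Gdf3 windows, the deep upstream trough and the Nanog start. Low windows were chosen on the naive TET_WT level, which enters this comparison, and centring subtracts a library shift of -9.64 points. For the gene bodies, the difference of the gains was 1.22 ± 1.46 points for Nanog (limma adjusted p = 0.44), -0.158 ± 1.30 for Gdf3 (limma adjusted p = 0.91) and -9.21 ± 1.39 for Dppa3, with a median gene at -9.44.

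Naive TET_KO and TET_WT on D2 had nearly the same genome-wide median level, with a shift of -0.477 points in the knockout, so their windows were compared at a matched level. These groups differ in both line and day, so the comparison only locates differences. In the neighbourhood the knockout was lower in 18 windows (7.08% of all windows) and higher in 1 (6.02%). All 19 passed in the same direction after centring, when 6.05% of all windows were lower and 6.84% higher. Without TET_WT replicate 2 of D2 the counts before centring were 15 and 2. The windows lower in the knockout included the Nanog body, at 25.0% ± 0.347 against 49.7% ± 5.28 (SD, n = 3), with a difference of -24.7 ± 2.09 points (limma adjusted p = 1.1e-09). They also included 5 windows between 21.9 and 0.905 kb upstream of the start, led by chr6:122685579-122687909 with -25.2 ± 2.82 and chr6:122687910-122692148 with -25.0 ± 2.19 points. The deep upstream trough differed by -17.3 ± 1.23 points. The one window higher in the knockout was the end of Nanog, by 16.1 ± 1.84 points (limma adjusted p = 1.7e-07), directly beside the body. Averaged over the 3 windows that overlap the gene body, the difference was -4.07 ± 1.03 points for Nanog, which was not called. That mean includes the whole end window, which lies mostly beyond the gene. The start window stood at 1.61% in naive TET_KO against 5.23% in TET_WT on D2. Over all genes, 1.11% were called lower and 1.85% higher.

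**Figure D5:**
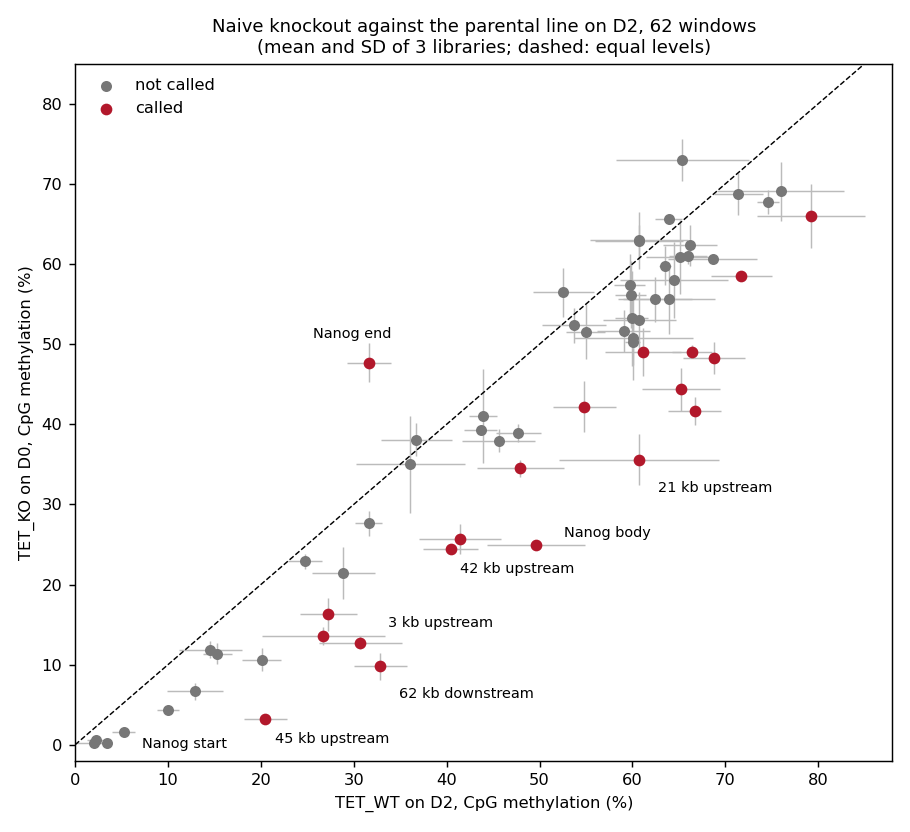
CpG methylation (%) of each window in naive TET_KO against TET_WT on D2; points are means and grey bars the SD of 3 libraries, red points were called, the dashed line marks equal levels, and labels give distances of window midpoints from the Nanog start. The Nanog end lies above the line at 47.7% against 31.6%, while the Nanog body at 25.0% against 49.7% and the window 45 kb upstream at 3.22% against 20.5% lie below it.

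DNMT_WT began almost without methylation and ended near TET_WT. On D0 it was lower than TET_WT in 35 windows (88.9% of all windows), on D1 in 32 (85.6%), and in the other direction in none on either day. After centring the signs turned, with 29 higher and 1 lower on D0 (15.8% and 13.5% of all windows). On D1, 31 were higher and none lower after centring (16.0% and 7.95%). On D2, 6 windows were higher in DNMT_WT (1.78% of all windows) and 1 was lower (10.5%). After centring, 11 were higher (4.14%) and 1 was lower (4.76%). The 6 were the lower-coordinate and middle windows of Dppa3, the window next to the deep upstream trough, and 3 windows in Slc2a3, of which chr6:122736042-122738982 differed by 14.2 ± 1.91 and chr6:122738993-122741605 by 13.3 ± 1.21 points. The lower one was chr6:122635966-122640954, between Dppa3 and Nanog, with -13.8 ± 2.71 points. The gain from D0 to D2 was larger in DNMT_WT in 43 windows (82.7% of all windows), led by chr6:122745637-122749718 with 29.4 ± 3.30 points, and smaller in none. After centring it was smaller in 19 (16.8% of all windows) and larger in none (12.5%). The Dppa3 gene body gained 20.3 ± 1.39 points more than in TET_WT (limma adjusted p = 8.1e-13), a gain called larger in 85.3% of all genes, beside a median gene at 17.8. Both end windows of Dppa3 lie mostly outside the gene, and its middle window alone gained 14.4 points more, below that median.

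The genes with the most similar levels over the 9 groups were sought outside the neighbourhood by the root mean square difference of their group means. For Nanog these were Neurl2 at 1.59 points, Tefm at 2.14 and Tdh, the threonine dehydrogenase of naive stem cells, at 2.15. For Dppa3 they were Edn1, Prr14 and Skp1, at 2.29 to 2.40 points. For Gdf3 they were Sf3b4 at 1.33, Rpl3 at 1.33 and Vmn2r39 at 1.48 points. Tdh stood at 4.47% in naive TET_WT and 27.3% in naive TET_KO, against 4.43% and 24.8% for Nanog. The likeness is a distance between 9 values and carries no test.

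Other genes of the same pathways were counted from lists, with the genes of the neighbourhood left out. Of 28 genes of core and naive pluripotency, 19 were higher in TET_KO on D0 (96.2% of all genes), led by Tet1 with 35.5 ± 1.35, Tfcp2l1 with 33.4 ± 1.29, Stat3 with 32.8 ± 1.13 and Nr5a2 with 32.0 ± 1.01 points, and the list's median difference was 19.9 points against 25.2 for all genes. On D2, 16 were higher (85.8% of all genes), and from D1 to D2 in TET_WT 20 rose (90.3%). Tet1, named here and below among the leading genes, is itself knocked out in TET_KO. Of 19 genes of Nodal, GDF and activin signalling, the family of Gdf3, 18 were higher in TET_KO on D0 (96.2% of all genes). They were led by the receptor gene Acvr1b with 29.9 ± 1.12 points, and the list's median was 23.9 against 25.2 for all genes. Of 12 genes of methylation control, the setting of Dppa3, 11 were higher on D0 (96.2% of all genes). They were led by Dnmt1 with 36.5 ± 1.36 and followed by Tet1 and by Uhrf1 with 31.1 ± 1.09 points. The list's median was 25.3 against 25.2 for all genes. Of the family of Apobec1, the genes Apobec2, Apobec3 and Apobec4 were all higher on D0 (96.2% of all genes), with a median of 32.4 points. In the comparison of naive TET_KO with TET_WT on D2, 3 pluripotency genes were lower (1.11% of all genes), namely Tcl1 with -19.8 ± 1.13, Prdm14 with -10.6 ± 1.06 and Tbx3 with -10.1 ± 0.627 points, and none was higher.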

How the data were processed

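Genomic DNA of 27 libraries (3 lines, 3 days, 3 replicates) was bisulfite sequenced. Per the submitters' processing notes, reads were handled with Trim Galore 0.6.6, cutadapt 2.3 and Bismark 0.23.0 on GRCm38. The authors deposited the percent methylation of each window named as holding 100 CpGs. How windows were filled and which coverage filter was used is not given in the sources used here. The files used hold percentages without counts, so no depth is known and counting error cannot be stated.

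Percentages were used as deposited, over 444250 nuclear windows, those measured in all libraries, which include all 62 of the neighbourhood. limma 3.58.1 (R 4.3.3, lmFit and eBayes with trend) was fitted to the 9 group means, which left 18 residual degrees of freedom. Benjamini-Hochberg adjustment ran over all windows, or over 21430 protein-coding genes, whose value is the mean of the windows that overlap the gene body. The 15 contrasts were consecutive days within a line, TET_KO and DNMT_WT against TET_WT on each day, differences of the D0 to D2 gains, and naive TET_KO against TET_WT on D2. The fit was tested on simulated data. Comparisons of TET_KO and of DNMT_WT with TET_WT share the TET_WT libraries.

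Named were the genes of the interval, windows at Nanog, Dppa3 and Gdf3, up to 3 called windows with the largest difference per contrast and direction, the lowest and highest windows, the 3 most alike genes per gene and up to 4 called list members. Exceptions, such as the deep upstream trough, are windows chosen after their values were seen. The members, lists and tests were chosen with earlier results of these data known. One item of the interval is not reported here. Gene positions and promoter sequences came from RefSeq tables of GRCm38.p6, which give no strand for 3 of the 5 protein-coding genes described. Alternatives were library median centring, a logit scale, other minimum differences, filters and fits, and leaving out each library. Under Python 3.11.15, matplotlib 3.10.9 drew the figures from tables made with pandas 2.3.3 and numpy 2.4.6, with scipy 1.17.1 for rank correlations.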

Additional observations from a re-analysis of the deposited data

Results flagged for a closer look

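The gains from D0 to D2 differed between lines in tests of the difference itself, in the model of limma over all 27 libraries. TET_KO and TET_WT differed in 38 of the 62 windows. The gain was smaller in TET_KO in 37 (44.2% of all windows) and larger in 1 (2.5%). DNMT_WT and TET_WT differed in 43, all with a larger gain in DNMT_WT (82.7% of all windows).

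The Nanog start, chr6:122706585-122709443, gained 15.9 points more in TET_KO than in TET_WT. The windows with the largest opposite differences were chr6:122725007-122729648 at the edge of Slc2a3 with -28.9 points, chr6:122611515-122617718 beside Gdf3 with -26.0 points and chr6:122789448-122792979 in Slc2a3 with -25.4 points. Their naive TET_KO levels were 61.0%, 48.3% and 73.0%, against 16.3%, 17.4% and 25.7% in TET_WT.

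DNMT_WT gained 29.4 points more than TET_WT at chr6:122745637-122749718 in Slc2a3. At Dppa3 it gained 23.6 points more in the lower-coordinate window, 14.4 points more in the middle window and 20.3 points more over the gene body. The D0 levels of DNMT_WT were 4.59%, 1.61%, 0.641% and 2.05% there, in the same order, against 38.6%, 7.35%, 2.03% and 13.2% in TET_WT. The part of the starting level in these differences was not tested.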

How the results depend on the processing

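The counts of called windows stayed within 1.5 times under the logit scale, without trend, with only the groups of a contrast, with the loosened filter, with windows that overlap the limits and in all 102 counts that left out 1 library. With library median centring the counts were 0 for D0 to D1 in TET_WT and in TET_KO, 8 in DNMT_WT, and 17, 9 and 20 for D1 to D2 in TET_WT, TET_KO and DNMT_WT. They were 26, 25 and 17 for TET_KO against TET_WT on D0, D1 and D2, 12 for DNMT_WT against TET_WT on D2, and 23 and 19 for the gains of TET_KO and DNMT_WT. On D0 and D1, DNMT_WT against TET_WT had 35 and 32 calls before centring and 30 and 31 after it. Of these, only 1 and 0 windows were called in the same direction both times. With a minimum of 20 points the counts were 0 for D0 to D1 in both TET lines, 7 in DNMT_WT, 11 for D1 to D2 in TET_KO and 9 for TET_KO against TET_WT on D2. For DNMT_WT against TET_WT they were 19, 8 and 0 on the 3 days, for the gains 11 in TET_KO and 17 in DNMT_WT, and 6 for naive TET_KO against TET_WT on D2. With no minimum they were 48 and 47 for D0 to D1 in TET_WT and TET_KO, 20 for DNMT_WT against TET_WT on D2 and 43 for naive TET_KO against TET_WT on D2.

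Of 74 single differences, 31 turned sign under centring, which by construction subtracts the shift of the library medians. For TET_WT from D1 to D2 they became -17.6 points at the Nanog start, -10.3 at the middle of Dppa3, -10.7 and -14.1 at the inner and higher-coordinate windows of Gdf3, and -3.44 at the deep upstream trough. For TET_KO against TET_WT on D0 they became -28.9 at the Nanog start, -7.90 at the Nanog body, -19.8 and -26.9 at Gdf3, -16.3, -21.0 and -4.30 along Dppa3 and -27.3 at the upstream trough. On D2 they became -3.35 at the Nanog start, -3.99 at the Nanog body, -7.86 and -15.6 at Gdf3, and -11.3 and -18.6 at Dppa3. Over gene bodies on D0 they became -10.0 for Nanog, -13.9 for Dppa3, -20.4 for Gdf3, -2.97 for Apobec1 and -6.06 for Slc2a3, and on D2 -13.4 for Dppa3 and -10.9 for Gdf3. Gains became 0.435 for Dppa3 and 9.48 for Gdf3 in TET_KO, and -11.8 for Nanog, -18.1 for Gdf3 and -5.51 for the middle of Dppa3 in DNMT_WT. With windows whose midpoint lies in the gene, the Gdf3 gain difference of TET_KO was 2.00, the D0 difference of Dppa3 was 9.36 and no longer called, and the D2 difference of DNMT_WT at Dppa3 was 13.0 and called. Leaving out 1 library turned the sign of the Gdf3 gain difference of TET_KO, which ranged from -1.11 to 0.927 points. The replicate block left all 15 counts and 74 differences on the same side. Correlations across windows of same-numbered deviations from group means were -0.0549 to 0.0570 over 108 pairs. Such correlations leave out shifts of whole libraries, so whether replicate numbers pair libraries cannot be decided from them. Depth limits cannot be stated, since no counts were used.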
